A study of Mus musculus with 8 samples.

Results

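Cyclic nucleotide phosphodiesterases are the enzymes that break down cAMP and cGMP. This account covers 10 of their genes in the mouse thoracic aorta: Pde1a, Pde1b, Pde1c, Pde2a, Pde3a, Pde3b, Pde4a, Pde4b, Pde4d and Pde10a. Every probe that was no control and carried a RefSeq transcript of 1 of these genes was taken, which gave 20 probes of the 55681 on the array. The aortas came from mice labelled Fto -/- (4 samples) and from mice labelled Fto +/+ (4 samples). All were labelled male, of a C57BL6J/NMRI background, kept under 12 h day and 12 h night with free food and water. Age, the Fto allele and the separate animals behind the samples are not given in the sources used here, so a p-value here covers only how these samples vary, which may be technical. Each sample was read in 1 colour (Cy3) on 1 array, from total RNA with an integrity number above 8.

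cAMP and cGMP relax arterial smooth muscle through protein kinases A and G, and phosphodiesterases end both signals. The families differ in what they cleave and in what controls them. Calcium and calmodulin switch on the PDE1 enzymes, cGMP stimulates PDE2 and competes at PDE3, and the PDE4 enzymes cleave cAMP alone. PDE1, PDE3 and PDE4 enzymes account for much of the cAMP breakdown in vascular smooth muscle, PDE3B is also the insulin-controlled phosphodiesterase of fat cells, and PDE10A is best known from the striatum of the brain.

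The genotype labels were checked on Fto, a demethylase of RNA adenosine. Its probe level, as log2 of intensity relative to the 75th percentile of the array, averaged -2.51 ± 0.24 in Fto -/- and 0.57 ± 0.215 in Fto +/+ samples (SD, n = 4 each). The two-sided p was 0.0286 by exact permutation, the smallest that 4 against 4 arrays allow. The Fto probe was still well above background on 4 of 4 Fto -/- arrays, at intensities of 49.2 to 70.1. In Fto +/+ samples its intensities were 408.9 to 751.5. The free-text description of each sample names the opposite genotype, and the groups here follow title and genotype field. The arrays went against the sex label: both Xist probes were well above background on 8 of 8 arrays, and the probes of the Y-linked Ddx3y, Kdm5d and Eif2s3y on 0. An exception was the Y-linked Uty in Fto +/+ replicate 3, where 1 of its 2 probes passed that call at an intensity of 207.8. The smooth muscle markers Acta2 and Myh11 were well above background on 8 of 8 arrays. The 75th percentile of intensity ran from 294.9 to 415.6 between arrays. Bulk RNA cannot tell fewer cells of a type from less RNA per cell.

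Some phosphodiesterase promoters respond to cAMP itself, through the cAMP response element TGACGTCA or its half-site TGACG, so the windows before the RefSeq starts were searched on both strands. Windows of 250 bases were at hand for 8 of the 10 genes (25 windows), with none for the other two, Pde3a and Pde3b. The full element was in 0 of these windows, against 1.55% of 32851 windows of all genes. The half-site, which the full element contains, was in 3 of them (12%), against 17.77% of all windows. These 3 stretches of 80 bases, from RefSeq on GRCm38.p6, are shown because they hold the half-site; it lies on the opposite strand, so the capitals mark CGTCA, and the letters alone are no evidence of a bound factor.
Pde1a, chr2:80039027-80039106, minus strand: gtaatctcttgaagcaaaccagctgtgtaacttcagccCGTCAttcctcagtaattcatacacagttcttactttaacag
Pde4a, chr9:21184013-21184092, plus strand: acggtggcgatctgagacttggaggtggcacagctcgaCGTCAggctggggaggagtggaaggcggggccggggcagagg
Pde4b, chr4:102421475-102421554, plus strand: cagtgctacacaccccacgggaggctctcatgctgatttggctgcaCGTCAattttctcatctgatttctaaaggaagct

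Which phosphodiesterases the aorta expresses was read from how many arrays each probe stood well above background on, as called by the scanner software. For Pde1a, Pde1b, Pde2a, Pde3a, Pde3b, Pde4a, Pde4b and Pde4d at least 1 probe was well above background on all 8 arrays, 12 probes in all. Pde10a was well above background on 2 arrays and Pde1c on 0. No finer ranking of the genes is given, since probes bind with different strength. Both Pde4a probes, for example, carry the transcript NM_183408, and on the array of Fto -/- replicate 1 they read 2608 and 737 units of intensity. The 8 genes are therefore described each against its own level.

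None of the 8 genes passed the comparison of Fto -/- with Fto +/+ aortas at an adjusted p of 0.05, against 1.8% of the 13053 genes tested, 0.896% higher and 0.904% lower (limma, Benjamini-Hochberg over 25292 probes). At an unadjusted p under 0.05 were Pde1a and Pde2a, 2 of 8 genes and both higher, where 20.7% of all tested genes were, 8.68% of all being higher. Counted by probes these were 2 of 12, where 19% of all tested probes were. For both genes the genotypes did not overlap, with Fto -/- above; 14.1% of all tested genes had no overlap, 5.01% with Fto -/- above. The median log2 difference, Fto -/- minus Fto +/+ throughout, was 0.12 over the 8 genes, with 5 positive and 3 negative, and that of all tested genes was -0.04. Pde3b had the next smallest p, with 1 high Fto +/+ sample. The direction was not settled for Pde1b, Pde3a, Pde4a or Pde4b, each of which turned its sign under at least 1 other processing setting. Nor was it for Pde3b and Pde4d, which kept their sign but have 95% intervals that include 0. The other tested Pde4d probe had a negative difference.

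**Figure D1:**
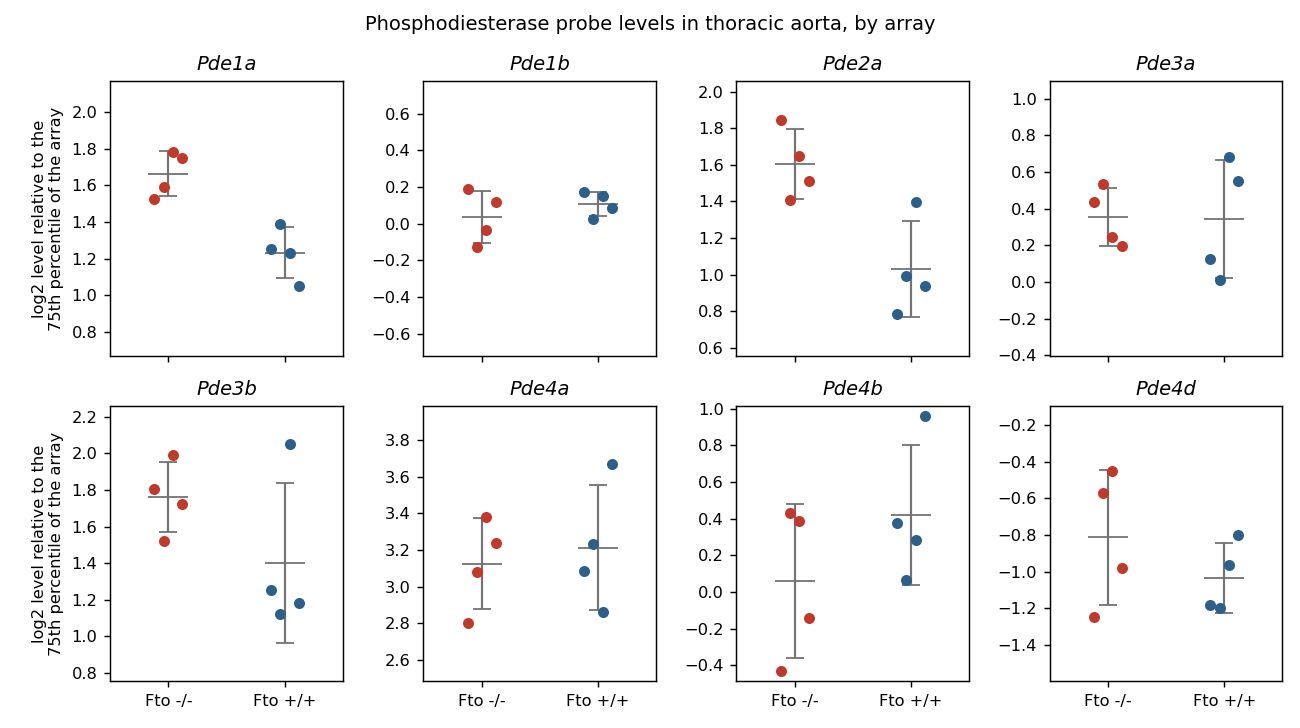
Level of the probe that stands for each of the 8 tested genes (y axis, log2 relative to the 75th percentile of the array), with a point for each array, a bar at the mean and whiskers of 1 SD, Fto -/- left of Fto +/+; each panel spans 1.5 log2 units. Only in the panels of Pde1a and Pde2a do all 4 Fto -/- points lie above all 4 Fto +/+ points.

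Pde1a encodes a calmodulin-dependent phosphodiesterase that cleaves both cGMP and cAMP, and is present in contractile smooth muscle. Its single probe (NM_001009978) had log2 levels of 1.53, 1.59, 1.78 and 1.75 in Fto -/- replicates 1 to 4, against 1.25, 1.39, 1.23 and 1.05 in Fto +/+ replicates 1 to 4. The lowest Fto -/- sample, replicate 1, lay above the highest Fto +/+ sample, replicate 2. The log2 difference was 0.43 ± 0.11 (SE; 95% interval 0.19 to 0.68), or 1.35-fold, with a limma adjusted p of 0.0897. It stayed positive in 24 of 24 other settings, from 0.35 to 0.53, and passed in 1 of them, with array weights (0.45, adjusted p = 0.0252). Slide row 1 held 3 Fto -/- arrays and 1 Fto +/+ array, and row 2 the reverse. Within rows 1 and 2 the log2 difference of Pde1a was 0.38 and 0.53. Slide columns 1 and 4 each held a single genotype, so a fit with slide column as a block takes the difference from columns 2 and 3 only. In these columns the Fto -/- arrays lay in row 1 and the Fto +/+ arrays in row 2, so that fit cannot tell genotype from row.

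Pde1b, also calmodulin-dependent, is best known from brain and immune cells. Its probe (NM_008800) had log2 levels of 0.19, -0.13, -0.03 and 0.12 in Fto -/- samples, against 0.17, 0.03, 0.15 and 0.08 in Fto +/+ samples. All 4 Fto +/+ samples lay within the range of the Fto -/- samples. The difference was -0.07 ± 0.10 (SE; 95% interval -0.30 to 0.16; limma adjusted p = 0.732).

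Pde1c, the remaining calmodulin-dependent gene and in human arteries a marker of proliferating smooth muscle, had 3 probes, and each was well above background on 0 of 8 arrays. Their intensities lay between 7.89 and 23.2 in Fto -/- samples, against 8.82 and 20.6 in Fto +/+ samples. The lowest intensity that the software called well above background was 20.8 to 33.6 on the Fto -/- arrays and 34.2 to 40.9 on the Fto +/+ arrays. On Fto -/- replicate 3 a Pde1c probe read 23.2, above the 20.8 of that array, without being called. Pde1c was thus not detected by the call, and no order between the genotypes is read from its levels. With every probe admitted, its probes gave 0.70 ± 0.30, 0.25 ± 0.20 and -0.31 ± 0.21 (SE, limma adjusted p 0.485, 0.641 and 0.641).

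Pde2a encodes the phosphodiesterase that cGMP stimulates, which lets cGMP lower cAMP, and in vessels it is known from endothelium. Its probe (NM_001143848) had log2 levels of 1.85, 1.41, 1.65 and 1.51 in Fto -/- samples, against 0.79, 0.99, 1.40 and 0.94 in Fto +/+ samples. The gap was narrow: Fto -/- replicate 2 and Fto +/+ replicate 3 differed by under 0.1 log2 units. The log2 difference was 0.57 ± 0.15 (SE; 95% interval 0.22 to 0.92), or 1.49-fold, with a limma adjusted p of 0.104. It was positive in 24 of 24 other settings and passed in 1, normexp background correction with quantile normalisation (0.55, adjusted p = 0.0458). Its size moved more than that of Pde1a, to 0.33 with slide column as a block, and to 0.85 and 0.40 within slide rows 1 and 2 (adjusted p 0.528 and 1).

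Pde3a and Pde3b encode cAMP phosphodiesterases that cGMP holds back, Pde3a in heart, platelets and vascular muscle, and Pde3b in fat, liver and also vascular cells. The brighter Pde3a probe (NM_018779) had log2 levels of 0.44, 0.53, 0.24 and 0.20 in Fto -/- samples, against 0.13, 0.01, 0.68 and 0.55 in Fto +/+ samples. The Fto +/+ samples fell in a high and a low pair around the Fto -/- samples, and the difference was 0.01 ± 0.17 (SE; 95% interval -0.37 to 0.39; limma adjusted p = 0.981). The other Pde3a probe, of the same transcript, differed by -0.02 ± 0.12 (SE; limma adjusted p = 0.935). Pde3b (NM_011055) had log2 levels of 1.81, 1.52, 1.99 and 1.73 in Fto -/- samples, against 1.25, 1.12, 2.05 and 1.18 in Fto +/+ samples. Fto +/+ replicate 3 lay above every other array, while its 3 companions lay below every Fto -/- array. The difference was 0.36 ± 0.21 (SE; 95% interval -0.12 to 0.84; limma adjusted p = 0.391). Without Fto +/+ replicate 3 it was 0.58 (adjusted p = 0.102), with slide column as a block 0.17 (0.61), with the white adipocyte marker level described further on as a covariate 0.13 (0.811), and with the smooth muscle level 0.09 (0.881).

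The 3 PDE4 genes encode cAMP-specific enzymes, the targets of rolipram, with many transcript forms each. Pde4a had log2 levels of 2.80, 3.08, 3.38 and 3.24 in Fto -/- samples with its brighter probe (NM_183408), against 3.09, 3.23, 2.86 and 3.67 in Fto +/+ samples. The 2 probes of Pde4a differed by -0.09 ± 0.19 and -0.15 ± 0.21 (SE; 95% intervals -0.52 to 0.35 and -0.64 to 0.33; limma adjusted p 0.836 and 0.729). Both overlapped between genotypes.

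Pde4b, the PDE4 gene of inflammatory cells among others, had log2 levels of -0.43, 0.43, 0.39 and -0.15 in Fto -/- samples with its brighter tested probe (NM_019840), against 0.38, 0.06, 0.28 and 0.96 in Fto +/+ samples. Fto +/+ replicate 4 was the highest array and Fto -/- replicate 1 the lowest. The difference was -0.36 ± 0.25 (SE; 95% interval -0.92 to 0.21; limma adjusted p = 0.461), and the second tested probe gave -0.27 ± 0.25 (SE; limma adjusted p = 0.594). The difference was -0.19 without Fto -/- replicate 1 and -0.18 without Fto +/+ replicate 4, and its sign turned with slide column as a block (0.24). A further Pde4b probe with the same transcript was well above background on 0 of 8 arrays.

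Pde4d, a PDE4 gene known from heart and vascular smooth muscle, had log2 levels of -1.25, -0.57, -0.45 and -0.98 in Fto -/- samples with its brighter probe (NM_011056), against -1.18, -1.20, -0.96 and -0.80 in Fto +/+ samples. Fto -/- replicates 2 and 3 lay above all other arrays, and replicate 1 below all. The difference was 0.22 ± 0.19 (SE; 95% interval -0.21 to 0.65; limma adjusted p = 0.552). It was 0.10 without Fto -/- replicate 3, 0.14 without replicate 2 and 0.37 without replicate 1 of that genotype, and it ran from 0.01 within slide row 2 to 0.57 with slide column as a block. The other tested probe gave -0.04 ± 0.15 (SE; limma adjusted p = 0.897), and a probe of the predicted transcript XM_006517644 was well above background on 0 arrays.

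**Figure D2:**
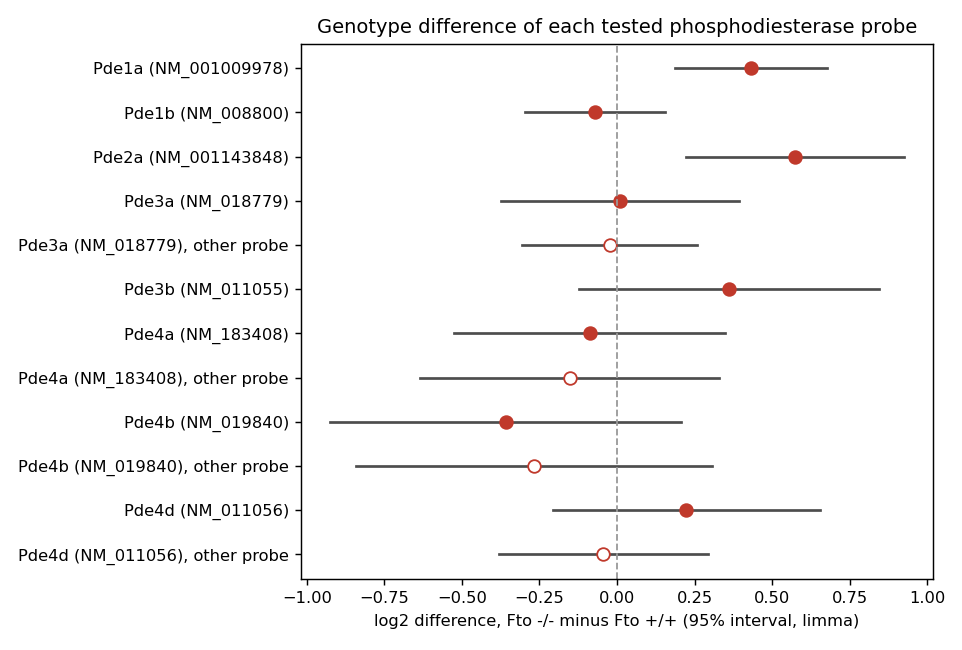
Log2 difference of each of the 12 tested probes, Fto -/- minus Fto +/+ (x axis), with its 95% interval from limma; filled points are the probes that stand for a gene and open points the others. The intervals of Pde1a and Pde2a lie above 0, and those of the other 10 probes include 0.

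Whether probes of 1 gene moved apart between the genotypes was tested within arrays, as the log2 difference between the probe that stands for the gene and its other tested probe. This could be done for Pde3a, Pde4a, Pde4b and Pde4d. Pde4d gave the widest gap, 0.27 log2 units (p = 0.314, two-sided, by exact permutation). The other 3 gaps were 0.03, 0.06 and -0.09, and the lowest p adjusted over the 4 pairs was 0.8 in the exact permutation test. In each of these pairs both probes carry the same transcript, so the comparison bears on probe positions and not on named isoforms.

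Pde10a, which cleaves both nucleotides, was at the edge of detection. Its NM_011866 probe had intensities of 55.9, 52.9, 35.5 and 37.4 in Fto -/- samples, against 21.2, 12.1, 42.8 and 18.0 in Fto +/+ samples. It was well above background in Fto -/- replicates 1 and 2 and in 0 of 4 Fto +/+ samples, although Fto +/+ replicate 3 read higher than 2 of the Fto -/- samples. The call itself was more frequent on Fto -/- arrays (45.6 to 47.8% of all probes) than on Fto +/+ arrays (44.5 to 45.2%). The share of all probes called only in Fto -/- samples was not counted. Scaled to the arrays, the mean log2 levels of the NM_011866 probe were -2.89 in Fto -/- and -4.14 in Fto +/+ samples. The bound computed for this difference was 1.32-fold, with Fto -/- above. That bound sets the mean over all 4 Fto -/- arrays, of which 2 measured the probe, against a Fto +/+ mean of, per array, whichever was larger, what the probe read or the array's lowest level called well above background. The bound is no sure minimum, since Fto -/- arrays on which the probe was not called entered that mean. The probe was too dim for the main test, and with every probe admitted its limma adjusted p was 0.282. The 2 probes of NM_001290707 were well above background on 0 of 8 arrays, at intensities between 6.83 and 20.5 in Fto -/- samples, against 8.95 and 25.9 in Fto +/+ samples.

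**Figure D3:**
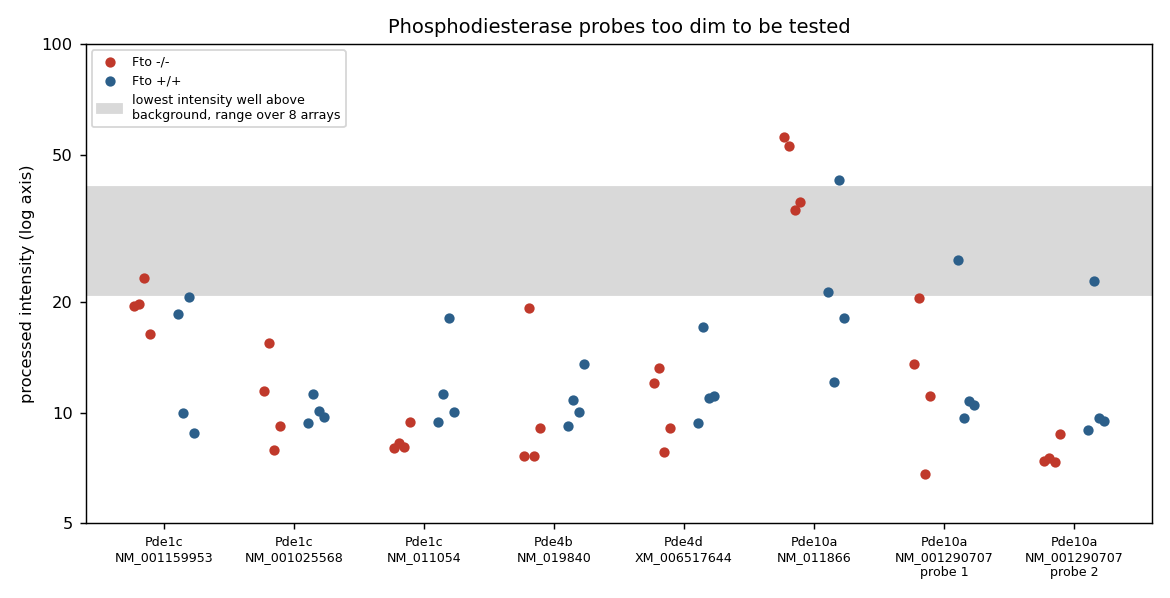
Processed intensity (y axis, log scale) of the 8 probes that were too dim to be tested, with a point for each array and Fto -/- left of Fto +/+; the grey band spans the lowest intensity called well above background on each of the 8 arrays. Only the NM_011866 probe of Pde10a has points above the band, 2 of Fto -/- and 1 of Fto +/+, and the software did not call that Fto +/+ spot well above background.

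The other genes that make, sense or clear cyclic nucleotides were read in the same fit, from 6 lists with 70 genes, of which 53 were tested. Of these 0 passed, against 1.8% of all tested genes. At an unadjusted p under 0.05 were 15, 7 higher and 8 lower, where 20.7% of all tested genes were, 8.68% being higher and 12% lower. The median log2 difference was -0.02. Of the 11 other phosphodiesterase genes Pde4c, Pde5a, Pde7a and Pde9a were tested. The cGMP-specific Pde9a differed by 0.45 ± 0.225 (SE; limma adjusted p = 0.317). Its highest array was Fto -/- replicate 1, and without it the difference was 0.23; with slide row as a block it was 0.26, with the smooth muscle level 0.17 and within slide row 2 0.05. Pde5a, the target of sildenafil, differed by 0.11 ± 0.15 (SE; limma adjusted p = 0.727). Of 12 cyclase genes tested, 8 had a negative difference, as had 7336 of all 13053 tested genes. Of the subunit genes of the nitric oxide receptor, Gucy1a1 differed by -0.38 ± 0.105 and Gucy1b1 by -0.25 ± 0.08 (SE, limma adjusted p 0.111 and 0.153). Their genotypes did not overlap, with Fto -/- below, as for 9.04% of all tested genes. A further subunit gene, Gucy1a2, went the other way, by 0.16 ± 0.20 with the probe that stands for it (SE, limma adjusted p = 0.697). Its other tested probes gave 0.475 and 0.52 (limma adjusted p 0.184 and 0.112).

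Of 11 kinase and effector genes the protein kinase A subunit gene Prkar1b differed by 0.50 ± 0.11 (SE; limma adjusted p = 0.0696). The probe that stands for another subunit, Prkar1a, gave 0.50 ± 0.155 (SE; limma adjusted p = 0.141), while a second probe of the same Prkar1a transcript gave -0.39 ± 0.12 (SE; limma adjusted p = 0.151). Of 11 anchor genes, which tie protein kinase A and phosphodiesterases to sites in the cell, Akap6 differed by -0.49 ± 0.13 and Akap7 by 0.82 ± 0.245 (SE; limma adjusted p 0.0961 and 0.131). The other Akap7 probes gave -0.03 and 0.20. Of 6 transcription genes the CREB coactivator gene Crtc3 differed by -0.47 ± 0.11 and Crem by 0.23 ± 0.12 (SE; limma adjusted p 0.0851 and 0.341). The other Crtc3 probe gave -0.30, and Crem was 0.14 without Fto +/+ replicate 4. Of 9 upstream and efflux genes Calm3, 1 of the calmodulin genes that activate PDE1, differed by 0.27 ± 0.10, and the cAMP exporter gene Abcc4 by 0.41 ± 0.16 (SE; limma adjusted p 0.191 and 0.219). A second Calm3 probe gave -0.12.

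Abcc5, which encodes an exporter of cyclic nucleotides, passed with some of its probes but not with the probe that stands for it. It was singled out after its values were seen. A probe of its transcript NM_176839 had log2 levels of -2.09, -2.02, -2.08 and -2.10 in Fto -/- samples, against -0.69, -0.87, -0.74 and -0.60 in Fto +/+ samples. It fell 2.54-fold (log2 difference -1.35 ± 0.09 SE, limma adjusted p = 0.00109), with no overlap between the genotypes. The other NM_176839 probe fell too (-0.85 ± 0.10 SE, limma adjusted p = 0.0101). With slide column as a block neither passed (limma adjusted p 0.14 and 0.144), nor did either within slide row 1 (0.289 and 0.502) or row 2 (0.514 and 0.724), and with slide row as a block the second did not (0.0616). The 2 probes of transcript NM_013790 differed by 0.04 ± 0.11 and 0.28 ± 0.14 (SE; limma adjusted p 0.874 and 0.31). Of the 84 tested probes of the 6 lists these 2 were the only ones past the threshold, against 1.66% of all tested probes; whether the transcripts differ from each other was not tested.

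**Figure D4:**
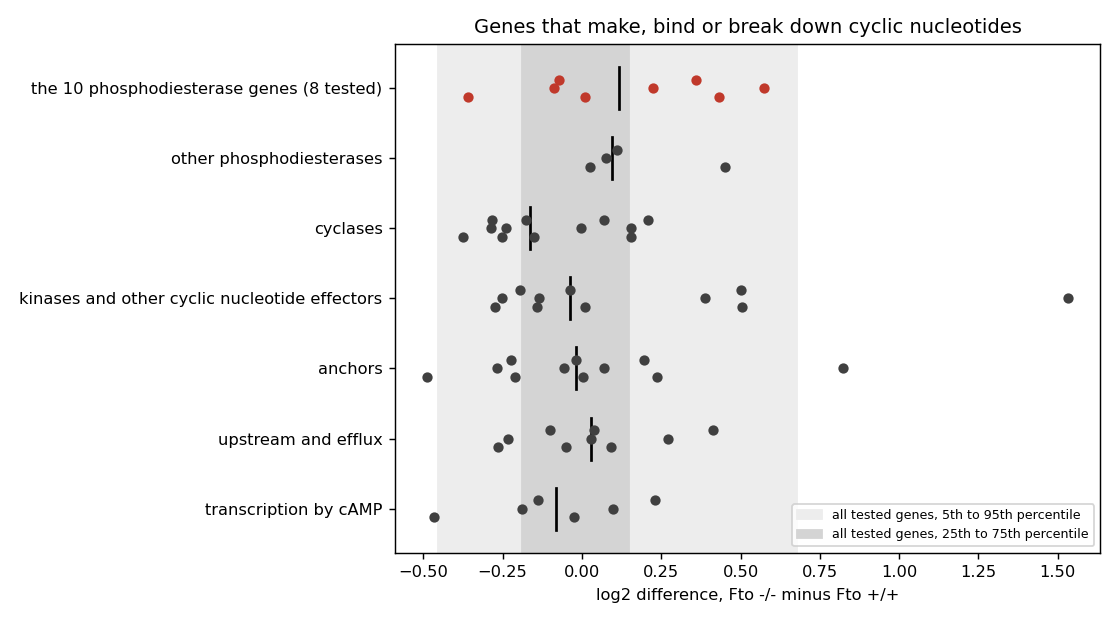
Log2 difference of each tested gene, Fto -/- minus Fto +/+ (x axis), for the 8 tested phosphodiesterase genes (red) and 6 lists of other cyclic nucleotide genes (black), with a bar at each median; grey bands give the spread of all 13053 tested genes. The medians of the 7 rows lie between -0.16 and 0.12.

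Markers of other tissues differed in level between the aortas, where the level of a list is the mean of its tested genes after each was centred over the 8 arrays. Brown adipocyte markers (9 of 10 tested) lay between -0.24 and 1.53 in Fto -/- aortas, against -1.35 and -0.09 in Fto +/+ aortas, and Ucp1 and Cidea were well above background on 8 of 8 arrays. White adipocyte markers (9 of 10) lay between -0.18 and 1.19 in Fto -/- aortas, against -1.54 and 0.69 in Fto +/+ aortas, with Lep well above background on 0 arrays. The fat markers lay higher in Fto -/- aortas on balance, though none passed the test. They were not alone in this, as the lists below show. Of the 9 brown adipocyte genes tested 8 had a positive log2 difference, with a median of 1.41, 6 at an unadjusted p under 0.05 and 4 without overlap. Of the 9 white adipocyte genes tested 9 had a positive difference, with a median of 0.80 and 2 at an unadjusted p under 0.05. Of all 13053 tested genes 5717 had a positive difference. At an unadjusted p under 0.05 were 20.7% of all tested genes, 8.68% being higher. No overlap was seen for 14.1%, with Fto -/- above for 5.01%.

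T cell markers (9 of 12) lay between -1.32 and 1.87 in Fto -/- aortas, against -1.80 and 1.67 in Fto +/+ aortas. Macrophage markers (7 of 8) lay between -0.24 and 0.70 in Fto -/- aortas, against -1.12 and 0.17 in Fto +/+ aortas, and fibroblast markers (8 of 8) between 0.03 and 0.32 in Fto -/-, against -0.67 and 0.18 in Fto +/+. Smooth muscle markers (10 of 10) lay between -0.18 and 0.06 in Fto -/- aortas, against -0.01 and 0.23 in Fto +/+ aortas, and endothelial markers (10 of 10) between -0.29 and 0.17 in Fto -/-, against -0.16 and 0.42 in Fto +/+. Striated muscle markers (8 of 11) lay between -1.06 and 0.55 in Fto -/- aortas, against -0.33 and 1.12 in Fto +/+ aortas. Nerve markers (3 of 7, with Dbh well above background on 0 arrays) lay between 0.12 and 0.33 in Fto -/- aortas, against -0.39 and 0.13 in Fto +/+ aortas. By gene, the log2 difference was positive for 9 of 9 T cell, 7 of 7 macrophage, 7 of 8 fibroblast and 2 of 3 nerve genes. Their medians were 1.62, 0.45, 0.30 and 0.65. It was negative for 6 of 10 smooth muscle, 7 of 10 endothelial and 6 of 8 striated muscle genes, with medians of -0.22, -0.22 and -0.64. None of the genes in these lists passed the test.

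Across the 8 arrays, 72 relations between a phosphodiesterase gene and a marker level were computed, and 0 passed after Benjamini-Hochberg adjustment (9 at an unadjusted permutation p under 0.05). Pde3b went with the white adipocyte level (Pearson r = 0.81, exact permutation p = 0.0127; Spearman rho = 0.74, p = 0.0458; adjusted p 0.332 and 0.377). Without the 2 arrays farthest from the median level r was 0.68, and with values centred within genotype it was 0.75. Pde2a went with the brown adipocyte level (r = 0.77, exact permutation p = 0.0276; rho = 0.76, p = 0.0368; adjusted p 0.332 and 0.377), with r = 0.81 without the 2 farthest arrays and 0.415 within genotype. Against the endothelial level Pde2a had r = 0.185 (exact permutation p = 0.663, adjusted p = 0.88), and 0.80 with values centred within genotype. Pde1a ran against the smooth muscle level (r = -0.73, exact permutation p = 0.0401; rho = -0.62, p = 0.115; adjusted p 0.332 and 0.487), with r = -0.64 without the 2 farthest arrays and -0.38 within genotype. So did Pde2a (r = -0.75, exact permutation p = 0.0324; rho = -0.74, p = 0.0458; adjusted p 0.332 and 0.377), with -0.55 without those arrays and -0.46 within genotype. The other relations at an unadjusted p under 0.05 were Pde3b with the brown adipocyte level (r = 0.75), Pde1a with the nerve level (0.75), and Pde4a with the fibroblast (-0.75) and macrophage levels (-0.77), each with an adjusted p of 0.332 by exact permutation. For Pde4a r was -0.29 and 0.13 without the 2 farthest arrays of each level, and -0.799 and -0.801 within genotype. For Pde3b with the brown adipocyte level r was 0.63 within genotype, and for Pde1a with the nerve level 0.12. Pde4b ran against the macrophage level (r = -0.87, exact permutation p = 0.00789; rho = -0.79, p = 0.0279; adjusted p 0.332 and 0.377). That relation rested largely on 2 arrays, since r was -0.36 without them. With all 8 arrays and values centred within genotype it was -0.84. With only 4 arrays in each genotype and slide row, no relation was tested within either.

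**Figure D5:**
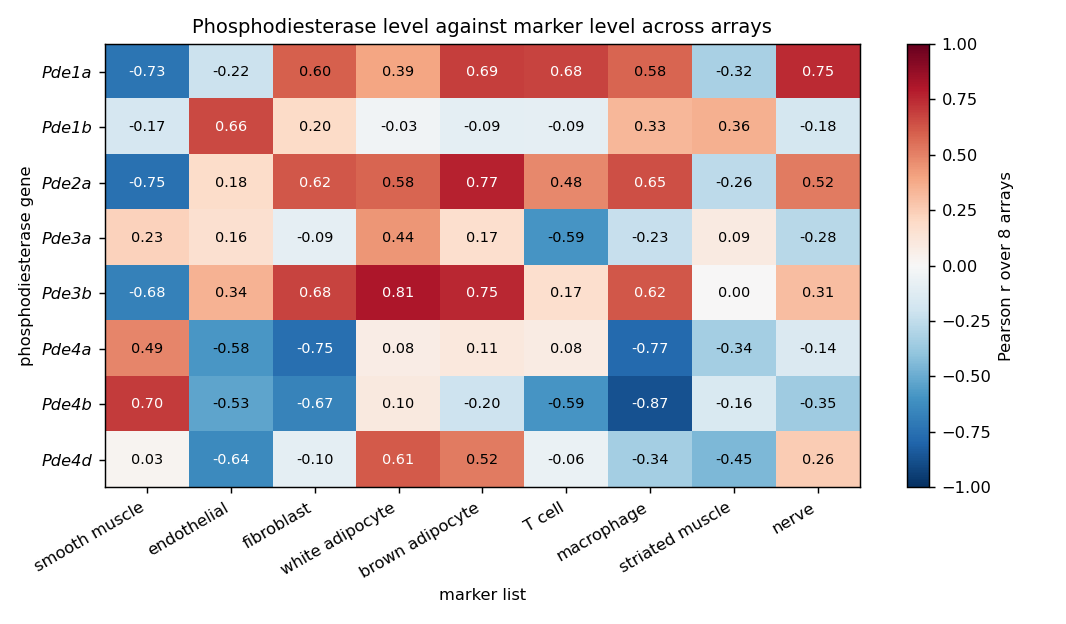
Pearson r over the 8 arrays (colour and number) between the level of each tested phosphodiesterase gene (rows) and the level of each marker list (columns). Pde3b has its highest r with white adipocyte markers (0.81), and Pde4b its lowest with macrophage markers (-0.87).

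With the white adipocyte level as a covariate, the log2 difference of Pde1a was 0.44 (limma adjusted p = 0.212) and that of Pde2a 0.49 (0.283). With the T cell level they were 0.36 and 0.54 (limma adjusted p 0.187 and 0.2), and with the smooth muscle level 0.35 and 0.41 (0.251 and 0.313). Both thus kept their direction beside each of these 3 levels, and neither passed. The part of the other marker lists in these differences was not tested.

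The genes whose pattern over the 8 arrays was most like that of the 3 phosphodiesterases of smallest p were sought among 13027 named genes. Pde1a was most like Mapkapk3 (Pearson r = 0.99), Bphl (0.98) and Atl2 (0.98). Pde2a was most like Gda (0.97), Jam2 (0.97) and Kbtbd11 (0.96), and Pde3b was most like Slc1a3 (0.98), Pepd (0.98) and Cox19 (0.97). These are the highest of many values over few arrays, given as a description.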

How the data were processed

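Per the file headers, intensity per spot came from Agilent Feature Extraction 11.0.1.1, which subtracts background; no scaling between arrays is recorded there. A deposited table gives log2 values for these 8 arrays; its values are centred per probe and on the log2 scale (slopes 0.958 to 1.01 against the scanner values, column medians -0.0095 to 0.0049), and how they were normalised is unknown here. The array design is on mm9, per the file headers. RefSeq accessions of another build, GRCm38.p6, named 50.9% of probes. No probe coordinates are given, and those of the promoter stretches are on GRCm38.p6.

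Control and outlier spots were left out, and spots of a probe averaged. The 75th percentile of an array was set to 0 on the log2 scale. Probes well above background on at least 4 of 8 arrays were tested with limma 3.58.1 in R 4.3.3, with Benjamini-Hochberg adjustment over all 25292; a gene is represented by its brightest tested probe. In simulated data for this comparison, with 25292 probes, the fit recovered 17.9% of probes changed by 0.5 log2 units, 70.1% of those changed by 1 and 90.9% of those changed by 2. Genes named outside the family are the 2 of smallest p in each list, Fto, markers, the 3 most alike, and a few chosen after their values were seen, Abcc5 among them. The members and lists were chosen with earlier results of these data known. Slide row and column were fitted as blocks. Precision is limited by the 4 arrays per genotype.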

Additional observations from a re-analysis of the deposited data

Results flagged for a closer look

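Pde3b in Fto +/+ replicate 3 stood far from its group, at a log2 level of 2.05 against 1.12 to 1.25 in the other 3 Fto +/+ samples. It was the 1 sample that stood out among 24 groups of 4 checked over the tested phosphodiesterase probes, and chance gives about 1 in 20. That sample also had the highest white adipocyte (0.69), brown adipocyte (-0.09) and macrophage (0.17) levels of the Fto +/+ samples. Its endothelial (0.42) and striated muscle (1.12) levels were the highest of all arrays, and its T cell (-1.80) and nerve (-0.39) levels the lowest. The part of these levels in the Pde3b value was not tested.

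The NM_011866 probe of Pde10a, outside the main test, was well above background on 2 arrays, both of Fto -/-, and on 0 Fto +/+ arrays. Fto +/+ replicate 3 nevertheless read 42.8, above 2 of the Fto -/- samples. More probes of all kinds were called on the Fto -/- arrays, and the share called only there was not counted.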

How the results depend on the processing

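The limits are the 4 arrays per genotype, 1 slide, and probes near background, for which only bounds can be given. The count of phosphodiesterase genes past the threshold, 0, became 1 with normexp (Pde2a) and 1 with array weights (Pde1a); it was 0 in each fit without 1 array. The count of other cyclic nucleotide genes, 0, became 1 with normexp (Crtc3), 1 without a filter (Prkg2), 4 with array weights (Crtc3, Akap6, Gucy1b1 and Prkar1b) and 1 with the mean of a gene's probes (Abcc5); it was 0 in each fit without 1 array. Over all probes the calls, 213 higher and 206 lower, became 273 and 154 with the percentile over detected probes, 61 and 35 without a filter, 960 and 1093 with array weights, 33 and 13 with slide row, 0 and 2 with slide column, and 22 and 9 with the smooth muscle level. Without 1 array they ran from 55 to 499 higher and from 46 to 387 lower, the highest without Fto +/+ replicate 4.

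Fto differed by -3.02 and -3.33 within slide rows 1 and 2 without passing (adjusted p 0.154 and 0.321). Signs turned as follows, with no value called. Pde3a was -0.0012 with quantile scaling, -0.0284 with normexp, -0.0021 in the deposited table, -0.06 with array weights, -0.219 within row 2, -0.1019 with the white adipocyte level and -0.0071 as the mean of its probes; without 1 array it ran from -0.1004 to 0.122. Pde4a was 0.0948 with array weights, 0.182 with slide column, 0.0016 within row 1 and 0.1589 with the smooth muscle level; without 1 array it ran from -0.205 to 0.064. Pde4b was 0.2383 with slide column and 0.0217 with the smooth muscle level, and Pde1b was 0.0346 within row 2. Pde5a was -0.034 within row 1, -0.0342 with the white adipocyte and -0.0532 with the smooth muscle level, and from -0.0109 to 0.212 without 1 array. The causes were not tested.

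Normexp on the median spot signal, the marker relations under other scalings (0 of 72 passed in each) and the runs on both NM_176839 probes of Abcc5 were chosen after seeing the data. These probes were lower in all 23 settings, from -1.396 to -0.877 and from -1.001 to -0.706. They missed the threshold with slide column (adjusted p 0.14 and 0.144) and within each slide row, the second also with slide row as a block (0.0616). The replicate number as a block left 0 phosphodiesterase and 0 other cyclic nucleotide genes past the threshold, and 90 probes higher and 42 lower overall. Deviations of same-numbered samples correlated at 0.155, -0.023, -0.019 and -0.041. These values show little likeness of same-numbered samples, and they cannot settle whether the numbers pair them.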
